A study of Mus musculus with 8 samples.

Results

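The genes described here are 9 transcription factor genes that control the formation of skeletal muscle, chosen by name: the myogenic basic helix-loop-helix (bHLH) genes Myod1, Myog, Myf5 and Myf6, the paired-box genes Pax3 and Pax7, the homeobox gene Six4, and the dachshund genes Dach1 and Dach2. The platform annotation gave 8 of the 9 genes a probe of their own, 1 probe each, among 31769 probes on the array. Of these, 6 genes carried a value on at least 1 array and 5 could be tested among 14750 features. No probe was named for Dach1 alone, and it is not analysed here.

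The cells were C2C12, an established myoblast line from C3H mice whose cells fuse into multinucleated myotubes when serum is withdrawn. The group called HDAC4 (4 samples) carried a retrovirus that expressed HDAC4, and the control group called Neo (4 samples) carried a Neo retrovirus. Both were stably selected, grown to 90% confluence and held in 2% horse serum for 4 days before RNA was taken. Every array set cell RNA in Cy5 against a murine reference RNA in Cy3 (from liver, by the labelling protocol), without dye swap, and the values are log2 ratios, read as cells over reference. That direction was read from the high values of muscle genes and is likely rather than stated. All samples are of the same cell line. The labels do not say whether replicates were separate cultures, so that the p-values cover array-to-array spread that could be purely technical. The sources used here do not give the promoter that drives HDAC4, and with 0 probes named Hdac4 the group labels could not be checked against that gene.

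HDAC4 is a class IIa histone deacetylase that binds MEF2 factors and holds back their target genes. Myod1 and Myf5 are the bHLH factors that commit cells to the muscle lineage, Myog drives myoblasts into differentiation, and Myf6 (also called MRF4) is expressed late and persists in mature fibres. They bind the E-box, CANNTG, together with E proteins such as Tcf3 and Tcf12, and Id proteins block them by taking the E proteins away. Pax3 and Pax7 act before them in muscle progenitors and satellite cells. Homeobox proteins of the Six4 kind bind a site called MEF3 in muscle promoters and work with Eya coactivators, while Dach proteins can turn those complexes into repressors. In denervated muscle of mice, HDAC4 is known to lower Dach2, which represses Myog.

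The promoter of Myog is shown because bHLH, MEF2 and MEF3-binding factors are known to act on it, and that of Six4 is shown because it was the other of 6 members with promoter sequence in the RefSeq table (build GRCm38.p6) that held MEF3 letters. Capitals mark E-boxes (CANNTG), MEF3 letters (TCAGGTTTC) and the MEF2-type letters CTANNNNTA, each searched on both strands in the 250 bases before the start site. The MEF2-type letters were settled on after the Myog window had been looked at. The lines run 5′ to 3′ and end at the base before the start. Myog lies on the plus strand and Six4, for which the table gives a second start whose window overlaps the shown one, on the minus strand.
Myog, chr1:134289754-134290003: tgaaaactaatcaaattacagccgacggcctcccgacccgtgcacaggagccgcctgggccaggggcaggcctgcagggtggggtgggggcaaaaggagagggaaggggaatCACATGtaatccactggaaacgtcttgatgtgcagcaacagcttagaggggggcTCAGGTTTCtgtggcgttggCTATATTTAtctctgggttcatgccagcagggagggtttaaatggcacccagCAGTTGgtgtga
Six4, chr12:73113246-73113495: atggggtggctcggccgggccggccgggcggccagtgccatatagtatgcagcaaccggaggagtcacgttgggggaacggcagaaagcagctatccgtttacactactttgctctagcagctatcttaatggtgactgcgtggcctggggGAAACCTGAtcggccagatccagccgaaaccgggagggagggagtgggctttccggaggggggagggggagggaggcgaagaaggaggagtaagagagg
Counted back from the start site, Myog held E-boxes at -138 to -133 and -12 to -7, MEF3 letters at -84 to -76 and MEF2-type letters at -64 to -56, with no overlap among them. Six4 held MEF3 letters on the opposite strand at -99 to -91 and neither of the other motifs. The window of its second start, not shown, held none of the motifs. Over all 32851 promoters of that table, 66.2% held an E-box in the same window, 19.0% held the MEF2-type letters and 0.387% held the MEF3 letters. These matches describe letters in a window and show no binding.

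The 8 arrays held between 17014 and 18521 values in HDAC4 and between 19248 and 22193 in Neo. Cell identity was checked first: of 10 markers of differentiated muscle, 7 had a probe. The median over the probes of these genes, 7 of them probes of Ttn, ranged over the arrays from 6.17 to 6.91 in HDAC4 and from 6.60 to 7.05 in Neo. Of their values, 51 in HDAC4 and 52 in Neo, 44 were at the inferred floor described below and 54 at ratios of 100 or more. Probes at that floor lay lower in HDAC4 as a class, as given below. Of the 7 genes, 5 had a lower and 2 a higher mean in HDAC4, and none passed the test. Actn2, the Z-disc actinin and named after its values were seen, had groups that did not overlap, with 0.67 in HDAC4 replicate 2, 6.45 to 6.99 in the other HDAC4 arrays and 7.47 to 7.78 in Neo. Of 6 fat cell genes 4 had a value: Cebpa on 8 arrays, at 1.01 ± 0.39 in HDAC4 and 0.96 ± 0.23 in Neo (SD, n = 4 each), Pparg on all arrays of both groups, and Fabp4 and Lep on some. The fat cell genes Adipoq and Plin1 had none. Of 3 bone cell genes with a probe, Alpl had 7 values and Sp7 and Ibsp none. All 6 measured proliferation markers had a higher mean in HDAC4, with a median difference of 0.27, and none passed the test. Whether residual dividing cells bear on the values below was not tested. The arrays numbered 1 stood apart in both groups: they correlated at 0.94 with each other across probes and at 0.89 to 0.90 with the rest, while the other 6 arrays correlated at 0.93 or more among themselves.

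Many high values on these arrays depend on an inferred lower limit of the reference signal, and its reach matters for the bHLH genes. The deposited ratios, taken back from the log scale, were rounded: every ratio from 1 to 10 was a multiple of 0.001, every ratio from 10 to 100 a multiple of 0.01, and every ratio of 100 or more a multiple of 0.1. A ratio multiplied by 10 should then be whole in about 1% of values from 1 to 10 and 10% of values from 10 to 100, but it was whole in 17.8% and 59.8%. Replacing weak reference signals by a fixed 10 units would give such an excess, and the ratio would then hold the signal of the cells alone. No source used here states such a floor; it is an inference. From 100 upward the rounding makes all values whole and the floor can no longer be read. A value is called at the floor here when its ratio lies from 1 to below 100 and the ratio multiplied by 10 is whole within 0.001, which held for 9.81% of all values. By that reading Myf6 was at the floor on 8 of 8 arrays and Myf5 on 5 of 7. Six4 had 1 such value of 8, and a lone whole value can come from rounding. All 8 values of Myod1 and of Myog were ratios of 100 or more, for which the floor is undetermined. Of 10 liver genes 8 had a probe and 5 a value, with 5 values in HDAC4 and 9 in Neo. Of these values 10 were at the floor. Ahsg, the only liver gene tested, averaged 0.41 in HDAC4 and 0.62 in Neo (n = 3 each). The median of the proliferation markers ranged from -3.66 to -2.41 in HDAC4 and from -3.98 to -3.10 in Neo. Whether the reference RNA came from liver was not tested.

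None of the 5 tested factors differed between HDAC4 and Neo past an adjusted p of 0.05 in limma, a linear model fitted to all features with Benjamini-Hochberg adjustment. Over all features 0.115% passed, 17 of 14750, of which 0.00678% of features were higher and 0.108% lower in HDAC4. Of the 5, 3 had a lower and 2 a higher mean in HDAC4, where 50.5% of all features were lower. The difference nearest the threshold was that of Myf6, which was 1.84-fold lower in HDAC4 with no overlap of the groups, as 5.32% of all features had none. Six4 had the highest positive difference of the 5, with overlapping groups. Myod1 and Myog stood at high log2 ratios in both groups, with differences of opposite sign that lay within the spread between arrays. At an unadjusted p under 0.05 there was 1 member, Myf6, against 7.34% of all features. In these bulk samples, fewer cells that express a gene and less of its RNA per cell cannot be told apart.

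**Figure D1:**
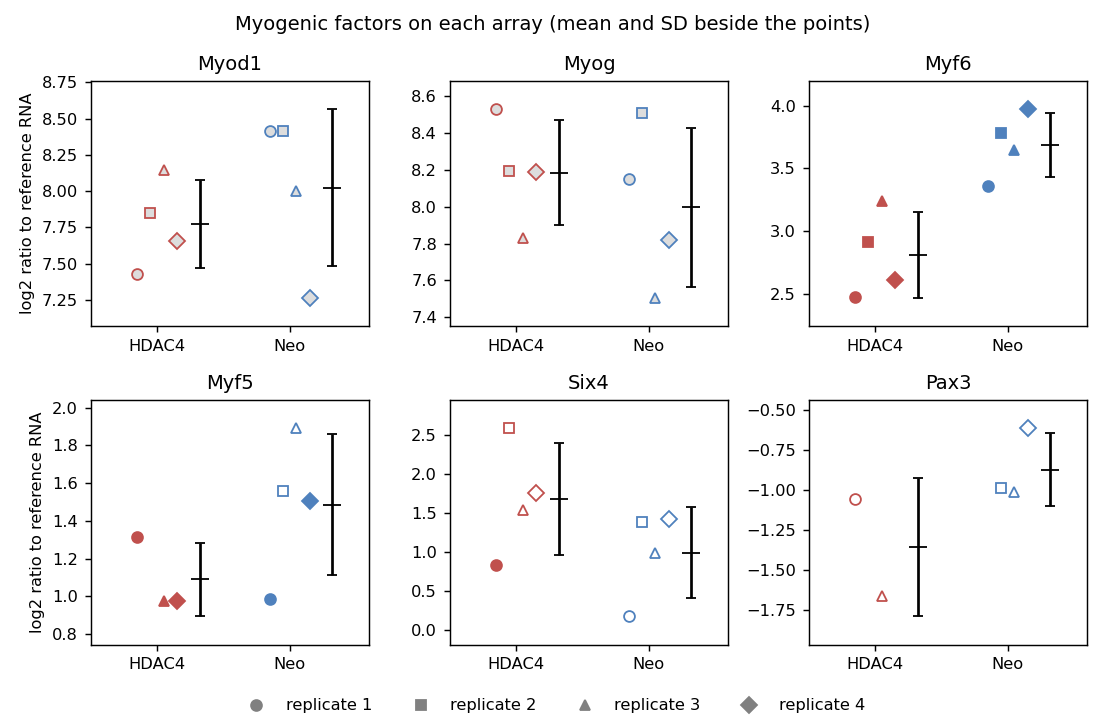
Log2 ratio to the reference RNA (array-median centred, y axis) of 6 factors on each array, HDAC4 left and Neo right, with marker shapes for replicate numbers and a bar for mean ± SD. Filled points were at the inferred floor, grey points had ratios of 100 or more and open points were neither. Only Myf6 among the 5 tested factors has groups that do not overlap.

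Myod1, the factor that can turn other cell types into muscle, had log2 ratios of 7.43, 7.85, 8.15 and 7.65 in HDAC4 replicates 1 to 4, against 8.41, 8.41, 8.0 and 7.27 in Neo replicates 1 to 4. The lowest of the 8 arrays was a Neo array and the groups overlapped. The means were 7.77 ± 0.30 in HDAC4 and 8.02 ± 0.54 in Neo (SD, n = 4 each), with a log2 difference of -0.25 ± 0.27 (SE) and an adjusted p of 0.911 in limma. The 95% interval ran from -0.85 to 0.35, which leaves room for a fall or a smaller rise. Same-numbered arrays differed by -0.98, -0.56, 0.15 and 0.39, so the sign was not shared among the 4 pairs. Without both arrays numbered 1 the difference was -0.01, and without Neo replicate 4 it was -0.50. Of 24 other probes within 1 log2 unit of its level, 12 had a lower and 12 a higher difference.

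Myog, the factor needed for myoblasts to form myofibres, had log2 ratios of 8.53, 8.20, 7.83 and 8.19 in HDAC4 replicates 1 to 4, against 8.15, 8.51, 7.51 and 7.82 in Neo replicates 1 to 4. The HDAC4 array was higher in 3 of 4 same-numbered pairs and lower in the pair numbered 2. The means were 8.19 ± 0.29 in HDAC4 and 8.0 ± 0.43 in Neo (SD, n = 4 each), a difference of 0.19 ± 0.23 (SE; limma adjusted p = 0.931; 95% interval -0.33 to 0.71). Among 25 other probes of like level the median difference was -0.29, and 2 of the 25 had a higher value than Myog. Leaving out 1 array gave differences of Myog between 0.02 without Neo replicate 3 and 0.36 without Neo replicate 2.

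Myf6, the late bHLH factor, stood at 56, 76, 96 and 62 units of cell signal in HDAC4 replicates 1 to 4, against 104, 138, 126 and 160 units in Neo replicates 1 to 4. The highest HDAC4 array lay below the lowest Neo array, and HDAC4 was lower in all 4 same-numbered pairs. As log2 ratios the means were 2.81 ± 0.34 in HDAC4 and 3.69 ± 0.26 in Neo (SD, n = 4 each), a difference of -0.88 ± 0.20 (SE; 95% interval -1.33 to -0.43). The limma adjusted p was 0.223, and the exact two-sided permutation p was 0.0286, the smallest that 4 against 4 arrays allow. By pairs of same-numbered arrays the exact sign-flip permutation p was 0.125, the smallest that 4 pairs allow. With the arrays numbered 1 as a term in the model the adjusted p was 0.0495, the only one of the settings tried under which Myf6 passed, and without those 2 arrays it was 0.0579.

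Probes at the floor as a class lay lower in HDAC4, and the value of Myf6 has to be read beside them. Apart from Myf6 there were 160 probes with a floor value on every array, and 150 of them had a difference below 0, with a median of -0.57. Of 115 tested features whose probes were all at the floor on all 8 arrays, Myf6 included, 92.2% lay below 0, 34.8% had groups that did not overlap, 46.1% had an unadjusted p under 0.05 and 6.96% passed the adjusted threshold. Of the 75 such probes within 1 log2 unit of Myf6, the median difference was -0.57 (quartiles -0.86 and -0.33), and 16 of the 75 lay below Myf6. With each array's median deviation of floor probes taken off its floor values, the difference of Myf6 was -0.31 ± 0.18 (SE; limma adjusted p = 0.836). The floor probes include those of muscle genes such as Csrp3, Ldb3, Trdn and Neb. The offset therefore also takes off any change that such genes share. A technical shift of floor values and a shared change of muscle genes cannot be told apart here.

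**Figure D2:**
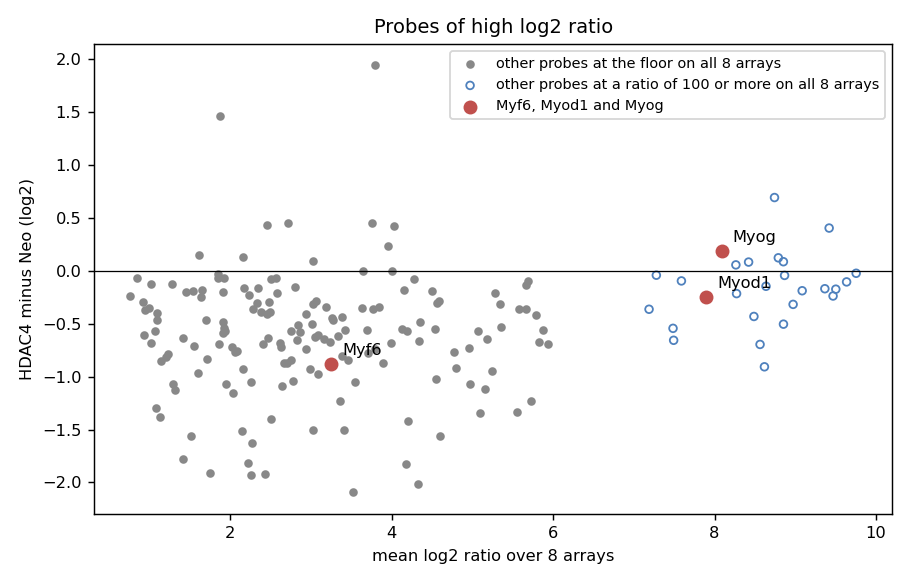
Difference between HDAC4 and Neo (log2, y axis) against mean log2 ratio over 8 arrays (x axis), 1 point per probe. Grey points are the 160 floor probes other than Myf6, open points the 25 others at ratios of 100 or more on all 8 arrays, and red points are Myf6, Myod1 and Myog: Myf6 lies among floor probes that are mostly below 0, and Myog above most probes of its level.

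Myf5, expressed in proliferating myoblasts and lowered in differentiation, was near the limit of measurement. It had log2 ratios of 1.31, 0.98 and 0.98 in HDAC4 replicates 1, 3 and 4 and no value in HDAC4 replicate 2, against 0.99, 1.56, 1.89 and 1.51 in Neo replicates 1 to 4. HDAC4 replicates 3 and 4 and Neo replicate 1 were tied at a ratio of 2 before centring. HDAC4 replicate 1 was higher at 2.5, so the groups overlapped. The means were 1.09 ± 0.20 in HDAC4 (SD, n = 3) and 1.49 ± 0.38 in Neo (SD, n = 4), a difference of -0.40 ± 0.22 (SE; limma adjusted p = 0.788; 95% interval -0.90 to 0.11). The limma fit drops the missing array. With the floor offset removed the difference was -0.11. The offset was taken from floor values alone, so Neo replicates 2 and 3, which were not at the floor, stayed uncorrected.

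The 3 bHLH genes with 8 values were also compared with each other within each array, a measure added after the data were seen, in which a shift shared by both genes on an array cancels. A shift of floor probes alone does not cancel where only Myf6 is at the floor. The differences between groups are of interest here, since the level of a probe cannot be set against that of another. Myog minus Myf6 was 6.05, 5.28, 4.59 and 5.58 in HDAC4 replicates 1 to 4, against 4.79, 4.73, 3.86 and 3.85 in Neo replicates 1 to 4. HDAC4 was higher by 1.07, with 1 HDAC4 array below 2 Neo arrays (exact permutation p = 0.0857, adjusted 0.214 over 3 comparisons), and it was higher in all 4 same-numbered pairs (exact sign-flip permutation p = 0.125). Myod1 minus Myf6 was higher in HDAC4 by 0.63 (exact permutation p = 0.143, adjusted 0.214). Its spread was 0.06 in HDAC4 and 0.75 in Neo (SD, n = 4 each), and 0.31 and 0.69 with the floor offset taken from Myf6. Myod1 minus Myog averaged -0.41 ± 0.58 in HDAC4 and 0.03 ± 0.46 in Neo (SD, n = 4 each), a difference of -0.44 (exact permutation p = 0.314, adjusted 0.314). None of the 3 passed. With the floor offset taken from Myf6, Myog minus Myf6 was higher in HDAC4 by 0.50 (exact permutation p = 0.171) and Myod1 minus Myf6 by 0.06 (exact permutation p = 0.914). Where the same offset was also taken from ratios of 100 and more it cancelled, and both differences were as first given.

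**Figure D3:**
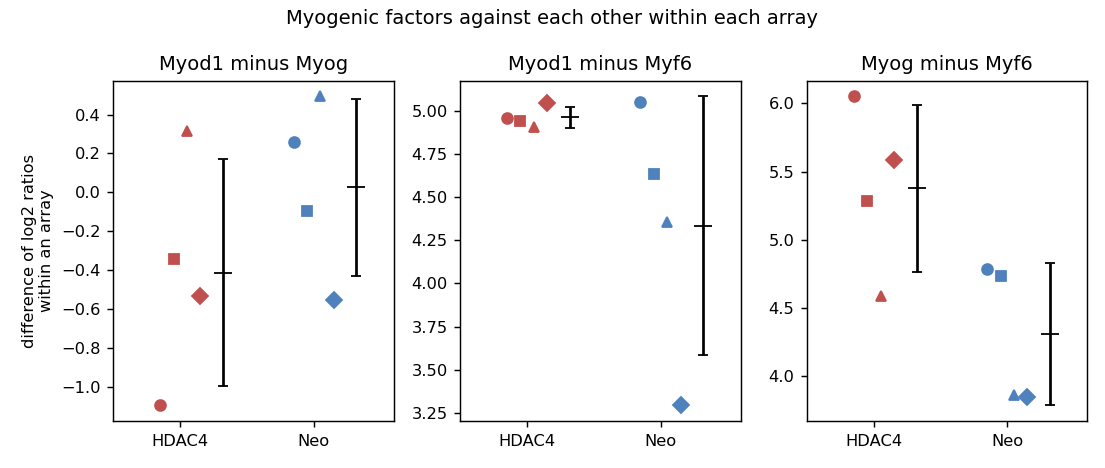
Difference of the log2 ratios of 2 bHLH genes within each array (y axis), HDAC4 left and Neo right, with marker shapes for replicates 1 to 4 (circle, square, triangle, diamond) and a bar for mean ± SD. Myog minus Myf6 is higher by 1.07 in HDAC4, with overlapping groups, and by 0.50 with the floor offset taken from Myf6.

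Six4, a homeobox factor that can bind MEF3 sites, had log2 ratios of 0.84, 2.59, 1.54 and 1.75 in HDAC4 replicates 1 to 4, against 0.18, 1.39, 0.98 and 1.42 in Neo replicates 1 to 4. The arrays numbered 1 were the lowest of each group, and HDAC4 was higher in all 4 same-numbered pairs, by 0.66, 1.20, 0.55 and 0.33. The means were 1.68 ± 0.72 in HDAC4 and 0.99 ± 0.58 in Neo (SD, n = 4 each), a difference of 0.69 ± 0.38 (SE; limma adjusted p = 0.786; 95% interval -0.17 to 1.54). An exact sign-flip permutation over the pairs gave p = 0.125, the smallest that 4 pairs allow. With the replicate number as a block the limma adjusted p was 0.219, the lowest of 22 alternatives. Without HDAC4 replicate 2 the difference was 0.38, and without Neo replicate 1 it was 0.41.

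Of the factors that act earliest, Pax3 was measured on 5 arrays. Its log2 ratios were -1.05 and -1.66 in HDAC4 replicates 1 and 3, against -0.99, -1.02 and -0.61 in Neo replicates 2, 3 and 4. Both HDAC4 values lay below all 3 Neo values, but 2 against 3 values often separate without any difference. The share of features with as few values that separate was not counted. It had too few values for the main filter of 3 per group. With at least 2 values per group its difference was -0.48 ± 0.26 (SE; limma adjusted p = 0.795). Presence of a value was tested for the 2 members measured on some arrays (Fisher's exact test, p = 1 each): Pax3 had a value on 2 of 4 HDAC4 and 3 of 4 Neo arrays, and Myf5 on 3 of 4 HDAC4 and 4 of 4 Neo arrays.

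Pax7, which marks satellite cells, and Dach2, the repressor between HDAC4 and Myog in denervated muscle, had 0 values on 8 arrays. The sources used here do not say why values are missing, and nothing about their level follows from the gap.

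**Figure D4:**
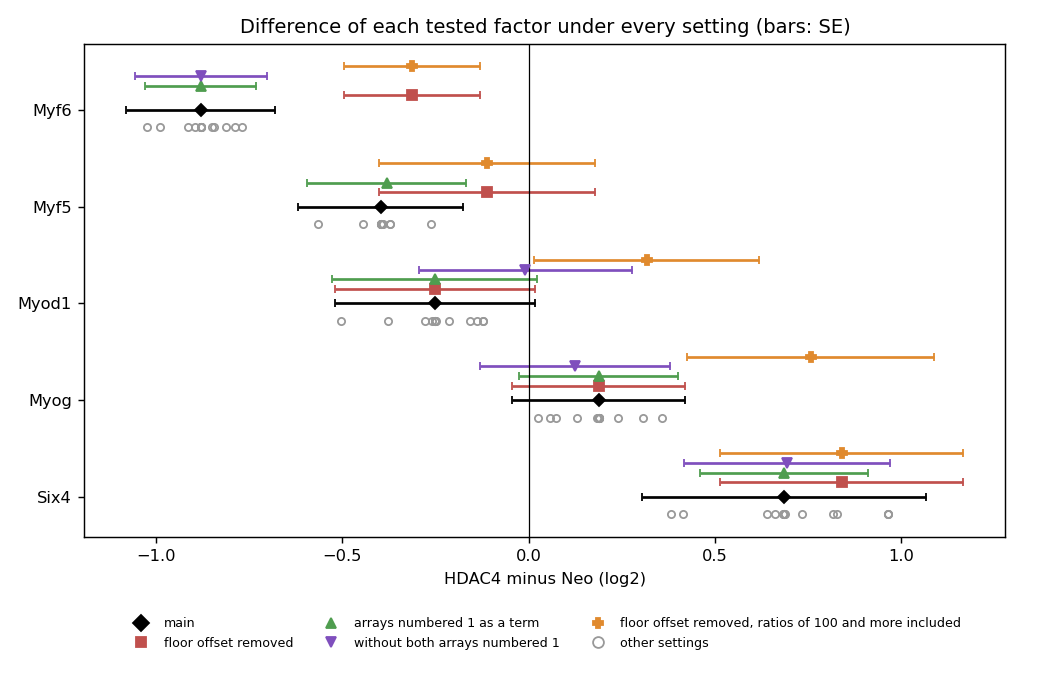
Difference between HDAC4 and Neo (log2, x axis) of the 5 tested factors under the planned fit (main) and every alternative that gave a value; error bars are SE, open circles are the settings not named in the legend. Myf6 stays below 0 and Six4 above 0 under all of them, while Myod1 lies at 0.32 when ratios of 100 and more are also corrected for the floor.

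The other genes of the pathway were taken from 4 lists with 66 genes, of which 47 were tested. None passed in limma, with 25 lower and 22 higher in HDAC4, and the median difference was -0.04, against 0.00 over all features. At an unadjusted p under 0.05 there were 2 lower and 5 higher, where 4.57% of all features were lower and 2.77% higher.

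Among the partners and inhibitors of the bHLH factors, 13 of 19 were tested, 9 lower and 4 higher, with a median difference of -0.19. Id1, which sequesters E proteins, averaged -2.10 ± 0.28 in HDAC4 and -1.40 ± 0.12 in Neo (SD, n = 4 each) with no overlap, a difference of -0.70 ± 0.16 (SE; limma adjusted p = 0.237). It had no value at the floor. Its adjusted p was 0.127 with the replicate block and 0.0256 with the arrays numbered 1 as a term. Id2 and Id3, named after their values were seen, had differences of -0.41 and -0.26. Bhlhe41, a transcriptional repressor of the bHLH class, had a difference of 0.64 ± 0.24 (SE; adjusted p = 0.596, 0.127 with the block and 0.0321 with that term). The Notch targets Hey1 and Hes1 had differences of 0.62 and -0.19. The E protein genes Tcf3, Tcf4 and Tcf12, also named after their values were seen, had differences of 0.04, -0.20 and -0.05.

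Of 11 genes in the list of Six4 relatives, Eya genes and Ski, 6 were tested, 3 lower and 3 higher, with a median difference of -0.01. The coactivator genes Eya4 and Eya3 had differences of -0.18 ± 0.16 and -0.02 ± 0.16 (SE), Ski 0.15 ± 0.14 (SE), and Six5 -0.06 ± 0.17 (SE). The smallest adjusted p among them in limma was 0.890.

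Of 18 regulators of progenitor and satellite cells 12 were tested, 6 in each direction, with a median difference of -0.02. Tbx1, a T-box factor of head muscle and pharyngeal development, averaged 2.29 ± 0.31 in HDAC4 (SD, n = 3) and 3.48 ± 0.18 in Neo (SD, n = 4) with no overlap. Its difference was -1.19 ± 0.19 (SE; limma adjusted p = 0.0794), and 6 of its 7 values were at the floor. With the floor offset removed the difference was -0.63 (adjusted p = 0.737). The adjusted p was 0.127 with the replicate block and 0.0286 with the arrays numbered 1 as a term. Sdc4, a heparan sulfate proteoglycan of satellite cells, had a difference of 0.46 ± 0.14 (SE; adjusted p = 0.442), with no overlap and no value at the floor. The receptor gene Notch1 had a difference of 0.57 and Spry1, an inhibitor of receptor tyrosine kinase signalling, one of -0.35.

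Of 18 genes with described binding of myogenic factors 16 were tested, 7 lower and 9 higher, with a median difference of 0.04. At an unadjusted p under 0.05 there were 2, both higher, where 2.77% of all features were higher and 4.57% lower. None passed after adjustment. Of their values, 78 in HDAC4 and 80 in Neo, 36 were at the floor and 76 at ratios of 100 or more. Chrng, the fetal subunit of the muscle acetylcholine receptor, averaged 7.44 ± 0.31 in HDAC4 and 6.75 ± 0.22 in Neo (SD, n = 4 each), a difference of 0.69 ± 0.18 (SE; limma adjusted p = 0.338). Chrnb1, another subunit, had a difference of 0.44 ± 0.16 (SE; adjusted p = 0.581). Mymk, the myoblast fusion protein myomaker, had one of 0.69 ± 0.34 (SE; adjusted p = 0.735), and the cell cycle inhibitor gene Cdkn1a one of 0.21. Among the 7 lower genes, Chrne, a further subunit, and Actc1 were named after their values were seen, with differences of -0.85 and -0.35. All 15 values of Chrne were at the floor, and with the floor offset removed its difference was -0.28. Without both arrays numbered 1 the differences were -1.71 for Chrne (limma adjusted p = 0.00645) and -0.59 for Actc1 (0.0422).

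**Figure D5:**
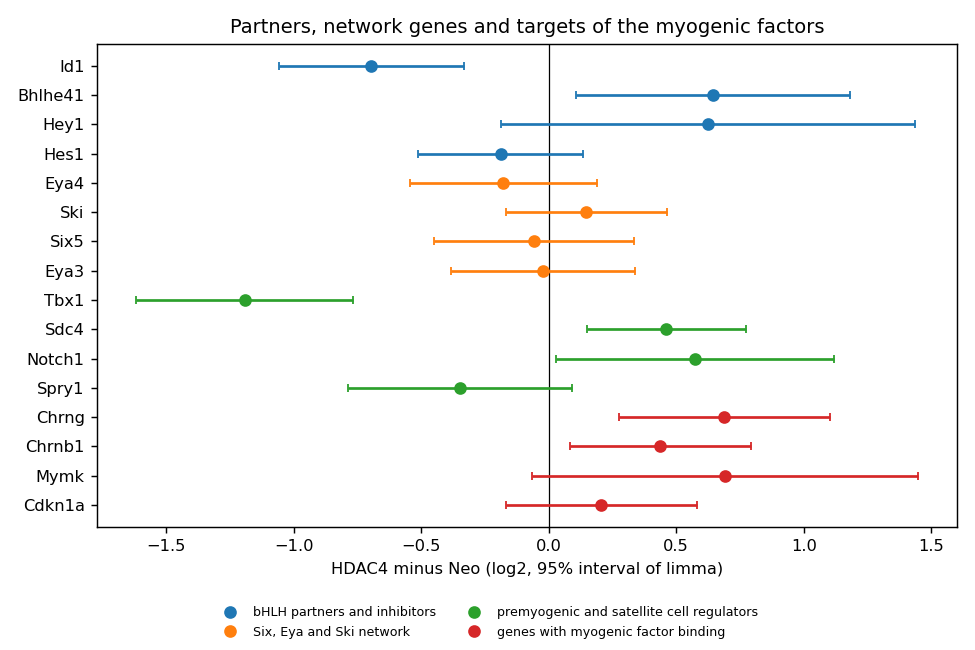
Difference between HDAC4 and Neo (log2, x axis) with the 95% interval of limma for the 4 genes of smallest p in each of 4 lists, coloured by list. Id1 and Tbx1 lie below 0 and Bhlhe41, Sdc4, Notch1, Chrng and Chrnb1 above 0 with their intervals, and none passes the adjusted threshold.

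The patterns most like each factor over the 8 arrays were looked up among 7933 named genes with values on all arrays, by Pearson correlation. For Myf6 these were the fast myosin heavy chain gene Myh2 (r = 0.96), Rp9 (r = 0.96) and Tpd52l1 (r = 0.95). Of 23 values of the Myh2 probes 17 were at the floor and 6 at ratios of 100 or more. Tpd52l1 had 6 of 8 values at the floor, and Rp9 had none. Myh2 averaged 4.79 in HDAC4 and 6.21 in Neo, without removal of the floor offset. For Six4 they were Hemk1 (r = 0.98), Map3k20 (r = 0.96) and Crebbp (r = 0.96), for Myod1 Luc7l3 (r = 0.95), Adcy6 (r = 0.92) and Baalc (r = 0.92), and for Myog Chpt1 (r = 0.95), Topbp1 (r = 0.92) and 2610042L04Rik (r = 0.91). The factors resembled one another little, with r between -0.47 for Myog and Myf6 and 0.27 for Myod1 and Myf6. These coefficients rest on 8 arrays that share their labelling and hybridization and include the 2 arrays numbered 1, and they are descriptions.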

How the data were processed

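Total RNA of 8 samples was measured on 2-colour arrays. Each array has 1 log2 ratio per probe, as deposited by the authors. How the background was corrected, how values were normalized and filtered, and with which software, is not stated in the sources used here. Column medians lay between 0.00576 and 0.0286. The number of arrays limits the precision.

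Probes were named from the platform annotation, which gave 18976 of 31769 probes a single gene and 404 several or none; 12793 in all have no single name here. Symbols were updated through the RefSeq table of GRCm38.p6, used for names and promoter sequences. Coordinates are given for 2 promoter windows of that table alone, since no build is named for the arrays. Arrays were centred on their medians and probes of a gene averaged. Features needed 3 values in each group. The groups HDAC4 and Neo were compared by lmFit and eBayes of limma 3.58.1 (R 4.3.3), checked on simulated data, and p-values were adjusted over all 14750 features at 0.05.

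The members and lists were chosen with earlier results of these data known. Named were all members, the 4 genes of smallest p in each list, and for each member with 8 values the 3 genes of highest correlation. Alternatives concerned probes, filters, normalization, covariates, arrays left out, the floor and the variance model; those on ratios of 100 and more were added after the data were seen.

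Same-numbered arrays of the 2 groups deviated together from their group means, with correlations across features of 0.52, 0.30, 0.19 and 0.11 for numbers 1 to 4. All lay above the limit of 0.1, the last narrowly, and by that limit the numbers were treated as pairing the arrays. Correlations between arrays of different numbers were not set beside them. The arrays numbered 1, which stood apart in both groups, also enter both group means. Whether the numbers pair the arrays beyond number 1 was therefore not tested. The planned fit and the permutations of 4 against 4 arrays are without the pairing; values with the replicate block or by pairs are named as such.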

Additional observations from a re-analysis of the deposited data

Results flagged for a closer look

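In 7 of 81 groups of 4 arrays, over 42 genes named in the text or shown beside the factors, 1 array lay far from the others, with a gap to its neighbour above 0.829 of the group's range; chance flags about 1 group in 20. None was a group of the factors themselves. In 6 of the 7 the array was numbered 1.

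Actn2 had the gap in HDAC4 replicate 2 (0.915 of the range), at 0.67 against 6.45 to 6.99 in the other HDAC4 arrays. Tpd52l1 was lower in Neo replicate 1 (0.912 of the range), at 2.64 against 3.40 to 3.48 in the other Neo arrays, and so was Myh2 (0.845), at 5.64 against 6.32 to 6.45. Baalc was lower in HDAC4 replicate 1 (0.853), at 2.06 against 2.80 to 2.93. Id1 was higher in HDAC4 replicate 1 (0.852), at -1.67 against -2.29 to -2.20. Hey1 was higher in Neo replicate 1 (0.847), at 1.15 against -0.70 to -0.41. Six5 was lower in Neo replicate 1 (0.833), at -1.72 against -1.08 to -0.95.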

How the results depend on the processing

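Over all features 17 passed in the planned fit. With the replicate block the count was 9. It was 92 with the arrays numbered 1 as a term, 305 without both of those arrays, 1 with values at the floor left out (also 1 with ratios of 100 and more left out as well), 3 with the floor offset removed, and 4 with that offset also taken from ratios of 100 and more. Leaving out 1 array gave counts from 0 (without Neo replicate 2, 3 or 4, with 838, 877 and 861 features at an unadjusted p under 0.05 in limma) to 65 (without Neo replicate 1).

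Among the 5 tested factors 0 passed, and 1 with the arrays numbered 1 as a term: Myf6, at the same difference of -0.88 (limma adjusted p = 0.0495). Its adjusted p lay between 0.0495 and 0.836 over 20 alternatives. The replicate block changed no call of the 5 factors (Myf6 adjusted p = 0.159). Of the related genes 0 passed in the planned fit and with the replicate block, 3 with the arrays numbered 1 as a term, 5 without those arrays, 1 with the offset also taken from ratios of 100 and more, and 0 to 2 with 1 array left out.

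The difference of Myod1 was -0.25 and became 0.32 when the offset was also taken from ratios of 100 and more, a setting that adds the offset's group difference to every such value by construction. The other 4 tested factors had the same sign under every alternative that gave a value. Myf5 could not be fitted without both arrays numbered 1, without HDAC4 replicate 1, 3 or 4, or with values on all 8 arrays required, Myf5 and Myf6 not without floor values, and Myod1 and Myog not without ratios of 100 and more. At the floor the ratio holds no measured reference signal, if the inference is right, and for Myod1 and Myog the reading of the floor is lost to rounding.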
